A study of Mus musculus with 4 samples.

Results

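The genes described here are 48 known imprinted genes of the mouse, measured in an embryonic stem cell line that was derived with a paternal genome only. They were chosen by symbol as known imprinted genes, with no measured value in the rule although earlier results of these data were known, and all 48 were found among the 23235 gene symbols of the RNA sequencing tables. By the allele favoured in those mouse tissues where they are imprinted, 25 are classed as paternally expressed and 22 as maternally expressed, and 1, Gnas, gives transcripts of either kind. They lie in 20 imprinted loci.

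The study asked how a mixture of 3 chemicals, RDF, acts on haploid embryonic stem cells (haESCs), which tend to turn diploid in culture. RDF holds Repsox, an inhibitor of TGF-β receptor signalling, DMH1, an inhibitor of BMP receptor signalling, and Forskolin, an activator of adenylyl cyclase, and the control cells received the solvent DMSO. RNA was sequenced from 4 samples, 2 of each condition, all labelled as mouse haESCs and, per the study, of the single androgenetic line HG165, which came from C57BL/6 mice. The labels give culture on feeder cells in ES medium with serum and LIF, whereas the study's methods leave feeders out of most experiments and do not list RNA sequencing among the exceptions. The study gives doses of these chemicals for a larger mixture that contains them. Which doses the sequenced samples received, how long they were treated, and whether haploid cells were sorted before RNA was taken, are not given in the sources used here, so the share of haploid cells in each sample is unknown. Nothing states that samples of a condition came from separate cultures, and p-values therefore measure the spread between these samples, which may be technical.

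Imprinted genes are expressed mainly from the allele of a single parent, because DNA methylation laid down in sperm or oocyte marks a control region at each locus and is kept through the divisions of the embryo. In a genome of purely paternal origin, textbook imprinting gives active paternally expressed genes and silent maternally expressed ones, in the tissues where those genes are imprinted. Cultured embryonic stem cells are known to lose or alter these marks, haploid lines of paternal origin among them, and several imprinted genes have biallelic or weak expression before differentiation. Neither DNA methylation nor the parental allele of a transcript was measured in the data analysed here.

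The promoters of 4 members are shown, and no link between their sequence and the levels was tested. Peg3 had the largest rise and Phlda2 the largest fall on the log2(FPKM + 1) scale among the 36 members tested. Mest has repeats of a sequence known to recruit an imprint guardian, and Meg3 is the maternally expressed RNA whose silence marks a paternal Dlk1-Dio3 locus. Each sequence is the RefSeq window of 300 bases on GRCm38.p6, from 250 bases before the transcript start to 50 bases after it, read 5′ to 3′ on the strand of the gene, and capitals mark the CpG dinucleotides, where DNA methylation is placed. Where RefSeq gives several windows for a gene, the one with most CpGs is shown. They lie at chr7:6730370-6730669 on the minus strand for Peg3, chr7:143502475-143502774 on the minus strand for Phlda2, chr6:30737800-30738099 on the plus strand for Mest and chr12:109540746-109541045 on the plus strand for Meg3.
Peg3: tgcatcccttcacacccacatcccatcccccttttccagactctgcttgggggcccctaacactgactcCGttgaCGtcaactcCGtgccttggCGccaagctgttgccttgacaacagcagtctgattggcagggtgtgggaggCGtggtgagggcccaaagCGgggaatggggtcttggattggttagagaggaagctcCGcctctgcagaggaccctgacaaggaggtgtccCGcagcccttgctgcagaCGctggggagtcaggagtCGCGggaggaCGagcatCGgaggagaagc
Phlda2: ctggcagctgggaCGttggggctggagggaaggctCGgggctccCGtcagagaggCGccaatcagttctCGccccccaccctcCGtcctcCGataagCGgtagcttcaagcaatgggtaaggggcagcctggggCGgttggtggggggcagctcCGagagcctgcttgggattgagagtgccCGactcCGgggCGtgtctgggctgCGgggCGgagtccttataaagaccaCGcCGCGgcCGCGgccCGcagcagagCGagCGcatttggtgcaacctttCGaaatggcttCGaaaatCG
Mest: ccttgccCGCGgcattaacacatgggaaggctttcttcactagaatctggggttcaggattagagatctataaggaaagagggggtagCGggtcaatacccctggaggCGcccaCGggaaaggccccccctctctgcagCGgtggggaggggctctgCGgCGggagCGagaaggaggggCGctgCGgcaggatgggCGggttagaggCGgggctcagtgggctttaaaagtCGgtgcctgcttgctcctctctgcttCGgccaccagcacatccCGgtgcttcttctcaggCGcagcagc
Meg3: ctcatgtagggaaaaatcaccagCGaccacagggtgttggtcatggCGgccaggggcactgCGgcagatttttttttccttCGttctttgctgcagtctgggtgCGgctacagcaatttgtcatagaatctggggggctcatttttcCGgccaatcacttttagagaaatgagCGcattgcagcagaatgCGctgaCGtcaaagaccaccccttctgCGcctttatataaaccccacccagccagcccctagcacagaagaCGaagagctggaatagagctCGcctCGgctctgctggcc

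Phlda2 has 26 CpGs in this window, Mest 17, and Peg3 and Meg3 13 each. The start of Usp29 lies 164 bases from that of Peg3 on the other strand, so that their windows share 263 bases. RefSeq windows were matched for 39 of the 48 members, and the median window of a member held 15 CpGs, against 7 over all 32851 promoter windows of the table. The median GC content was 57.7% against 52.7%. The letters TGCCGC, the core of the site bound in its methylated form by ZFP57, a zinc finger protein that keeps imprints, were searched on both strands. They were present in a window of 12 of the 39 members (30.8%) and of 3527 of the 27025 genes of the table (13.1%). Counted by window, the shares were 22.8% of 57 and 11.6% of 32851. These letters hold a CpG themselves, and the part of the members' higher CpG content in their share was not tested. Among paternally expressed members 7 of 20 had the letters, and among maternally expressed members 5 of 18. Mest has them from positions 9 and 184 of its window and Meg3 from position 61, counted from the first base printed. A match is a description of the letters and not a bound site, and control regions that lie away from a promoter are not covered by it.

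Some imprinted RNAs also carry microRNAs, which are shown as they are the mature products of transcripts whose levels are given below. The mature sequences are RefSeq's, with the seed, bases 2 to 8, in capitals. H19 is the host of miR-675 and Mest that of miR-335.
mmu-miR-675-5p: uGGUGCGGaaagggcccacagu
mmu-miR-675-3p: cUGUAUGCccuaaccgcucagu
mmu-miR-335-5p: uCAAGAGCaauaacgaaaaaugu
mmu-miR-335-3p: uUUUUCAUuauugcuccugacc

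The 4 seeds differ from each other. The genes Mir675 and Mir335 were listed at 0 FPKM in all 4 samples, and libraries of mRNA fragments do not measure mature microRNAs, so that only their hosts are described here.

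Expression is given as FPKM, fragments per length of transcript and per depth of the library, as the authors deposited it, so that levels of different genes are set per length. The tables do not hold fragment numbers, and the steps between the lowest values gave an estimated depth of 10000000 to 12480000 fragments per sample. All 10 listed markers of embryonic stem cells were above 1 FPKM in every sample, with 939 to 1285 FPKM for Pou5f1 and 42.6 to 50.6 FPKM for Nanog. Of 20 fibroblast markers, listed because feeder cells may be present, 15 were tested, and their summed level was 199 and 200 FPKM in DMSO and 135 and 137 FPKM in RDF. Most of this sum is Vim, which is not specific to fibroblasts, at 138 and 139 FPKM in DMSO and 88.9 and 91.1 FPKM in RDF, and without it the sum was 61.4 and 60.6 FPKM in DMSO and 46.5 and 45.8 FPKM in RDF. Both RDF values were above both DMSO values for 6 of the 20 markers, below them for 7, and overlapped for 7. Over all genes tested, both RDF values were above in 37.1% and below in 28.5%. Lox at 13.3 and 13.9 FPKM and Col1a1 at 10.5 and 10.4 FPKM in DMSO were the next highest, whereas Fap, Lum and Pdgfra were under 1 FPKM in all samples. Lum and Pdgfra were nonetheless higher in both RDF samples than in both DMSO samples. Differences between conditions were tested with limma on log2(FPKM + 1) in the 11733 genes that averaged 1 FPKM or more across all samples, with Benjamini-Hochberg adjustment and a threshold of 0.05. Fold changes on this scale understate the change of low genes. In bulk RNA, fewer cells of a type and less RNA per cell cannot be told apart.

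In the DMSO-treated cells, both classes of imprinted gene were expressed. At least 1 FPKM in both DMSO samples was reached by 16 of the 25 paternally expressed members (64%) and by 18 of the 22 maternally expressed members (81.8%), beside 11394 of all 23235 genes (49.0%). The median of the members' mean levels was 5.21 FPKM for paternally expressed and 12.8 FPKM for maternally expressed genes. Summed over its members, the paternally expressed class had 573 and 587 FPKM in DMSO and the maternally expressed class 530 and 540 FPKM. The largest single parts were Snrpn at 163 and 163 FPKM in the paternal sum and Cd81 at 192 and 192 FPKM in the maternal sum. These shares and sums rest on no test, as genes are not replicates. The classes come from tissues where the genes are imprinted, and whether each member is imprinted in these cells was not measured. The plot of FPKM by sample shows the spread of both classes.

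**Figure D1:**
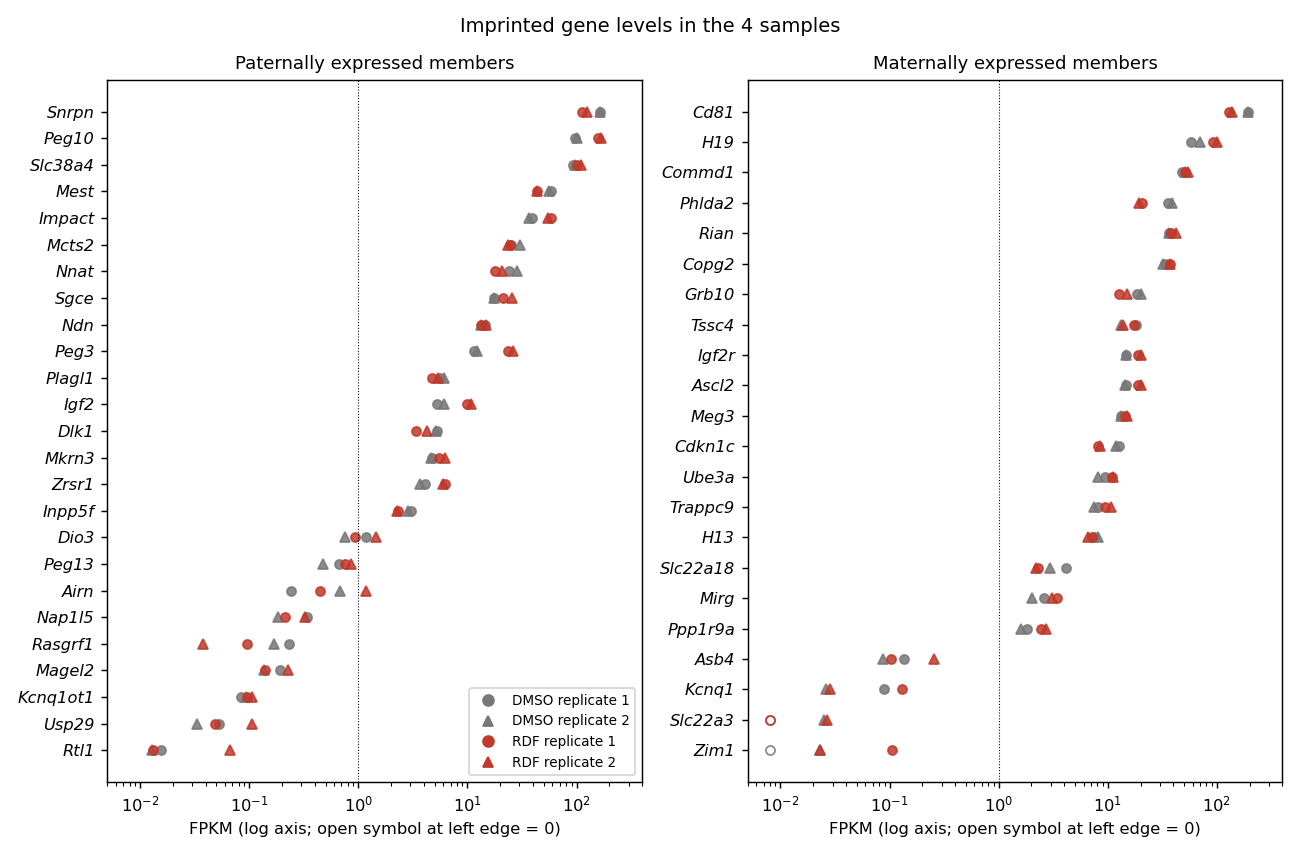
FPKM of each paternally or maternally expressed member in the 2 DMSO and the 2 RDF samples, on a log axis, with the classes in separate panels and 1 point per sample. Both classes span low and high levels in DMSO, with Snrpn at 163 and 163 FPKM among the paternally and Cd81 at 192 and 192 FPKM among the maternally expressed genes.

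At the loci whose control region is methylated in sperm, the maternally expressed RNAs were present. H19, a non-coding RNA made from the maternal allele next to the growth factor gene Igf2, had 57.6 and 70.7 FPKM in DMSO, which placed it between percentiles 92.9 and 94.2 of all genes in these samples. Igf2, which the same control region assigns to the paternal allele, had 5.30 and 6.04 FPKM, at percentiles 66.9 and 68.7. The paternally expressed gene of this locus was thus the lower of the pair, with a ratio of mean FPKM of 0.0887. At the Dlk1-Dio3 locus the picture was similar. Meg3, the non-coding RNA of its maternal allele, had 13.3 and 13.2 FPKM, and Rian, a maternal host of small nucleolar RNAs, had 36.5 and 36.5 FPKM. Dlk1, the paternally expressed transmembrane protein related to Notch ligands, had 5.24 and 5.18 FPKM, a ratio of 0.393 to Meg3. Mirg, a maternal host of microRNAs, lay at 2.59 and 2.01 FPKM. Dio3, the deiodinase that inactivates thyroid hormone, lay at 1.17 and 0.759 FPKM, and the retrotransposon-derived Rtl1 at 0.0157 and 0.0127 FPKM, worth about 1 fragment in each sample. Rasgrf1, a paternally expressed exchange factor of Ras, had 0.231 and 0.170 FPKM.

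At the loci whose control region is methylated in oocytes, 14 of 20 paternally and 14 of 18 maternally expressed members reached 1 FPKM in both DMSO samples. Among the former were Snrpn, a spliceosomal protein gene, with 163 and 163 FPKM, Peg10, a gene of retrotransposon origin needed in the placenta, with 96.6 and 101 FPKM, and Slc38a4, an amino acid transporter, with 93.1 and 96.4 FPKM. Among the latter, Cd81, a tetraspanin of the cell surface, had 192 and 192 FPKM. Phlda2, a restrainer of placental growth, had 35.9 and 38.9 FPKM. Cdkn1c, which encodes the cyclin-dependent kinase inhibitor p57, had 12.7 and 11.8 FPKM, and Igf2r, the receptor that removes IGF2, had 14.7 and 14.7 FPKM. Their antisense or cis-acting partners on the paternal allele were low: Kcnq1ot1 had 0.0844 and 0.0926 FPKM and Airn 0.243 and 0.674 FPKM. Both partners are long nuclear RNAs that may be poorly recovered in mRNA libraries, and this was not tested. Gnas, which encodes the G protein subunit that activates adenylyl cyclase, was the most abundant member with 266 and 239 FPKM.

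A total of 12 members had a mean below 1 FPKM and were not tested, 8 of them paternally and 4 maternally expressed. They were Rtl1, Rasgrf1, Usp29, Magel2, Kcnq1ot1, Airn, Nap1l5 and Peg13 of the paternal class, and Zim1, Asb4, Kcnq1 and Slc22a3 of the maternal class. Airn was the exception among them in reaching 1 FPKM in any sample, with 1.17 FPKM in RDF replicate 2, and none was at 0 in all 4 samples. The placental transporter Slc22a3 was listed at 0 in 1 sample of each condition and at 0.0253 and 0.0265 FPKM in the others. Peg13, a non-coding RNA inside Trappc9, ran from 0.477 to 0.861 FPKM, and Nap1l5, a nucleosome assembly protein gene, from 0.185 to 0.335 FPKM. Magel2, of the Prader-Willi region, ran from 0.135 to 0.225 FPKM, and the potassium channel gene Kcnq1 from 0.0262 to 0.131 FPKM. Rasgrf1 was lower in both RDF samples, at 0.0956 and 0.0380 FPKM, which correspond to 5.04 and 1.82 fragments against 9.76 and 8.19 in DMSO, so that no difference could be assessed at this depth.

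With RDF, imprinted genes moved in both directions. Of the 36 members tested, 10 were called higher and 7 lower, and 19 did not pass. This is 47.2% of the members tested, beside 21.6% of all genes tested (13.3% higher and 8.28% lower). Both RDF values lay above both DMSO values for 19 members, beside 37.1% of all genes, and below them for 14, beside 28.5%. The paternally expressed class had 6 higher and 3 lower calls of 17 tested, with a median log2 fold change of 0.15. This median was 0.0044 without DMSO replicate 2, -0.016 without RDF replicate 2 and 0.036 without the filter on low values. The maternally expressed class had 4 higher and 4 lower of 18 tested, with a median of 0.13, and the median of all genes tested was 0.03. Leaving out 1 RDF sample left calls for 7 (without replicate 1) or 6 (without replicate 2) of these 17 members, and leaving out 1 DMSO sample for 15 (without replicate 1) or 13 (without replicate 2), with no change of direction among the 17. The plot of log2 fold changes gives each tested member of both classes with its interval.

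**Figure D2:**
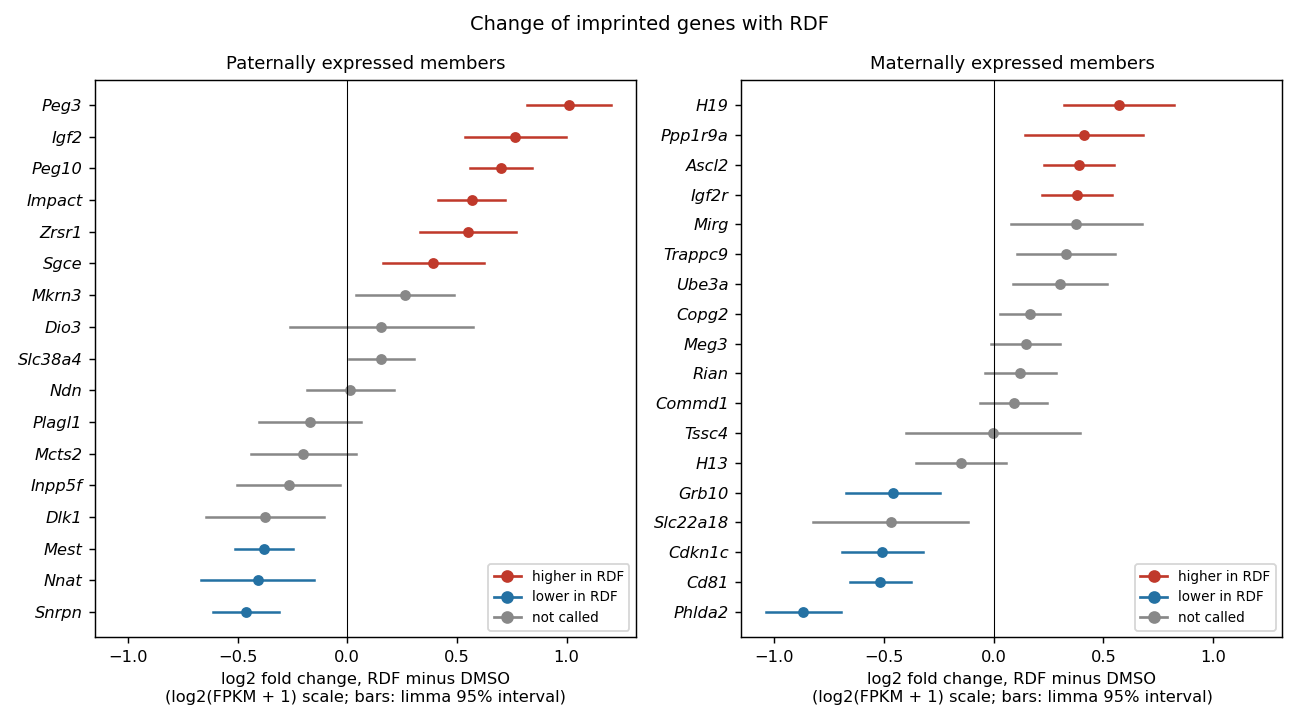
Log2 fold change, RDF against DMSO on the log2(FPKM + 1) scale, of the 17 paternally and 18 maternally expressed members tested, in separate panels. Bars are limma's 95% intervals, colours give the call, and Gnas is not plotted. The values run from -0.87 for Phlda2 to 1.01 for Peg3, and both classes have members on each side of 0.

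Among paternally expressed genes, the largest rise among those tested was that of Peg3, a zinc finger transcription factor with roles in growth and maternal care. Its level was 11.6 and 12.1 FPKM in DMSO and 23.4 and 26.4 FPKM in RDF. The groups did not overlap, and the mean rose 2.11-fold, from 11.8 ± 0.396 to 24.9 ± 2.11 FPKM (SD, n = 2 each). On the log2 scale the rise was 1.01 with a 95% interval of 0.82 to 1.20 and an adjusted p of 0.00154 from limma. Usp29, which shares the Peg3 promoter window shown above on the other strand, stayed at 0.0329 to 0.106 FPKM, at most 3.13 fragments, and Zim1, the maternally expressed gene of that locus, at 0 to 0.106 FPKM. Peg3 lies at chr7:6656603-6683132 of mm9. Its adjusted p stayed below the threshold with each sample left out in turn, the highest being 0.0272 without RDF replicate 2.

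Igf2, the insulin-like growth factor, rose from 5.30 and 6.04 FPKM to 9.81 and 10.9 FPKM. Both RDF values were above both DMSO values, a 1.82-fold rise of the mean with a log2 change of 0.77 (SE 0.095, adjusted p = 0.00491). Peg10 rose from 96.6 and 101 FPKM to 157 and 166 FPKM, again without overlap, with a log2 change of 0.70 (SE 0.059, adjusted p = 0.00173). Its neighbour Sgce, which encodes ε-sarcoglycan of the dystrophin complex, was 17.4 and 17.5 FPKM in DMSO and 21.2 and 25.5 FPKM in RDF. The change of 0.39 (SE 0.094, adjusted p = 0.0335) was smaller than that of Peg10, and the adjusted p was 0.0821 without the filter on low values and 0.0577 without the mean-variance trend. Impact, an inhibitor of the kinase GCN2 in the control of translation, rose from 39.3 and 36.6 to 58.2 and 55.3 FPKM, a change of 0.57 (SE 0.063, adjusted p = 0.00362). Zrsr1, a copy of a splicing factor gene, rose from 4.05 and 3.67 to 6.26 and 5.97 FPKM, a change of 0.55 (SE 0.090, adjusted p = 0.0109). It lies within Commd1 on the opposite strand, and Commd1 had 47.9 and 51.5 FPKM in DMSO and 51.6 and 54.4 in RDF (adjusted p = 0.329). Whether strand was used in the counting is not stated, so fragments of overlapping genes may be divided between them. With each sample left out in turn, the calls of Peg10 and Impact were kept, with highest adjusted p of 0.0348 and 0.0450 from limma. Igf2 lost its call without RDF replicate 2 (0.0558), Zrsr1 without RDF replicate 1 (0.0779) or 2 (0.0714), and Sgce without DMSO replicate 1 (0.0706) or 2 (0.0712) or RDF replicate 2 (0.122).

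Paternally expressed genes also fell. Snrpn fell from 163 and 163 FPKM to 113 and 123 FPKM, the mean from 163 ± 0.527 to 118 ± 7.41 FPKM (SD, n = 2 each). The groups did not overlap, and the log2 change was -0.46 (SE 0.062, adjusted p = 0.00624). Mest, which encodes a protein of the α/β hydrolase family and is expressed in mesoderm, fell from 58.3 and 55.9 FPKM to 43.6 and 43.6 FPKM, a change of -0.38 (SE 0.054, adjusted p = 0.00751). Nnat, the membrane proteolipid neuronatin, was at 23.8 and 28.3 FPKM in DMSO and at 18.0 and 20.8 FPKM in RDF, with a change of -0.41 (SE 0.11, adjusted p = 0.0415) whose call was lost without the filter on low values and without the mean-variance trend (0.0697). Dlk1 had both RDF values, 3.40 and 4.22 FPKM, below both DMSO values of 5.24 and 5.18 FPKM, but the change of -0.38 had an adjusted p of 0.0581. This passed the threshold with median-ratio scaling of the samples (adjusted p = 0.0470) and with quantile normalization (adjusted p = 0.0374). With 1 sample left out, Snrpn lost its call without RDF replicate 1 (adjusted p = 0.0537), Mest without RDF replicate 1 (0.0611) or 2 (0.0651), and Nnat without DMSO replicate 2 (0.117), RDF replicate 1 (0.190) or RDF replicate 2 (0.0941). Ndn, whose product necdin restrains growth of neurons, was 14.6 and 13.3 FPKM in DMSO and 13.4 and 14.8 FPKM in RDF, and its interval of -0.18 to 0.21 included 0. The remaining tested members of this class were Dio3, Mkrn3, Plagl1, Mcts2, Slc38a4 and Inpp5f, with log2 changes between -0.27 and 0.26 and adjusted p between 0.0907 and 0.545. Mkrn3, a RING finger protein that restrains the onset of puberty, had 4.75 and 4.65 FPKM in DMSO and 5.50 and 6.22 FPKM in RDF. Inpp5f, a phosphoinositide phosphatase, had 3.03 and 2.85 FPKM in DMSO and 2.30 and 2.25 FPKM in RDF. Neither overlapped between conditions, and neither passed the test.

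Among the maternally expressed genes tested, H19 had the largest rise on the log2(FPKM + 1) scale. By the ratio of mean FPKM, Ppp1r9a rose 1.52-fold and H19 1.49-fold. H19 went from 57.6 and 70.7 FPKM to 91.4 and 99.6 FPKM, with means of 64.2 ± 9.28 and 95.5 ± 5.81 FPKM (SD, n = 2 each). The groups did not overlap, and the log2 change was 0.57 (95% interval 0.32 to 0.82, adjusted p = 0.0145), with an adjusted p of 0.0515 without the filter on low values. H19 lies at chr7:149761434-149764048 of mm9 on the minus strand, and is also high in fibroblasts, the cells of a feeder layer. The fibroblast markers moved in both directions, as given above, and their part in the rise of H19 was not tested. Igf2r rose from 14.7 and 14.7 to 18.8 and 20.1 FPKM, a change of 0.38 (SE 0.066, adjusted p = 0.0131). Ascl2, a transcription factor of trophoblast, rose from 14.6 and 14.5 to 18.8 and 20.0 FPKM, a change of 0.39 (SE 0.066, adjusted p = 0.0118). Ppp1r9a, the actin-binding protein neurabin, was the lowest of those called, at 1.80 and 1.59 FPKM in DMSO and 2.42 and 2.74 FPKM in RDF. Its change of 0.41 (SE 0.11, adjusted p = 0.0465) lost the call without the filter on low values (adjusted p = 0.0929), with median-ratio scaling (0.0535), with quantile normalization (0.0629), with a replicate block (0.0615) and with any single sample left out (0.0700 to 0.197). Without RDF replicate 1 or 2 the adjusted p was 0.0736 and 0.109 for H19, 0.0592 and 0.0897 for Igf2r, and 0.0576 and 0.0849 for Ascl2, so that these calls needed both RDF samples.

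The falls in this class included 3 genes of the Kcnq1 locus. Phlda2 fell from 35.9 and 38.9 FPKM to 20.8 and 19.3 FPKM, the mean from 37.4 ± 2.09 to 20.0 ± 1.05 FPKM (SD, n = 2 each), without overlap. The log2 change was -0.87 (95% interval -1.04 to -0.70, adjusted p = 0.00159), the largest fall among the members tested. Cd81 fell from 192 and 192 FPKM to 130 and 138 FPKM, a change of -0.52 (SE 0.057, adjusted p = 0.00360). Cdkn1c fell from 12.7 and 11.8 to 8.20 and 8.48 FPKM, a change of -0.51 (SE 0.075, adjusted p = 0.00843). Outside this locus Grb10, an adaptor that dampens insulin and IGF receptor signalling, was at 18.7 and 20.1 FPKM in DMSO and at 12.8 and 14.9 FPKM in RDF. Its change of -0.46 (SE 0.089) had an adjusted p of 0.0181, and 0.0523 without the filter on low values. With each sample left out in turn, Phlda2 and Cd81 kept their calls, with highest adjusted p of 0.0336 and 0.0434. Cdkn1c lost its call without RDF replicate 1 (0.0656) or 2 (0.0608), and Grb10 without DMSO replicate 2 (0.0547), RDF replicate 1 (0.0889) or RDF replicate 2 (0.0514).

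Within a locus, neighbouring genes moved together at some loci and apart at others. In the Kcnq1 cluster, with all 8 members on mouse chromosome 7, 6 were tested: Phlda2, Cd81 and Cdkn1c fell, Ascl2 rose, and 2 were not called. The latter were Slc22a18, at 4.14 and 2.93 FPKM in DMSO and 2.31 and 2.19 FPKM in RDF (adjusted p = 0.0671), and Tssc4, whose samples of each condition overlapped at 13.3 to 18.3 FPKM. Kcnq1ot1, the non-coding RNA that silences this cluster on the paternal allele, was 0.0952 and 0.107 FPKM in RDF. At the Snrpn-Ube3a locus Snrpn fell while the change of Ube3a, the ubiquitin ligase mutated in Angelman syndrome, from 9.47 and 8.20 to 11.0 and 11.2 FPKM, had an adjusted p of 0.0568. At the Dlk1-Dio3 locus none of the 5 members tested was called. Meg3 had 14.6 and 15.0 FPKM in RDF and an adjusted p of 0.153, Rian 37.9 and 41.9 FPKM and 0.234, and Mirg 3.43 and 3.10 FPKM and 0.0765. Both RDF values of these 3 maternal RNAs were above both DMSO values, as in 37.1% of all genes tested. At the Peg10-Sgce locus the 3 members tested all rose, the paternally expressed Peg10 and Sgce and the maternally expressed Ppp1r9a.

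The levels of neighbouring genes with opposite parental expression were then set against each other in each sample, as the log2 of (FPKM + 1) of the paternally expressed gene minus that of the maternally expressed gene. No test was run on this measure, and an exact permutation test of 2 samples against 2 could not give a two-sided p below 0.333. Of the 12 pairs, the paternally expressed gene was the lower in all 4 samples in 6 and the higher in all 4 in 6. The Igf2-H19 difference was -3.22 and -3.35 in DMSO and -3.10 and -3.08 in RDF, so that H19 exceeded Igf2 in every sample while both genes rose. The Dlk1-Meg3 difference was -1.20 and -1.20 in DMSO and -1.82 and -1.61 in RDF, without overlap. The Mest-Copg2 difference was 0.78 and 0.77 in DMSO and 0.22 and 0.24 in RDF, with Copg2, a coatomer subunit, at 33.6 and 32.4 FPKM in DMSO and 37.4 and 36.9 FPKM in RDF. These genes share 904 bases on opposite strands in the annotation. The Snrpn-Ube3a difference went from 3.97 and 4.16 to 3.25 and 3.35. Over the 12 pairs the RDF differences lay above both DMSO differences in 5, below them in 4 and overlapped in 3, namely Sgce-Ppp1r9a, Airn-Igf2r and Mcts2-H13. The Zrsr1-Commd1 difference was -3.28 and -3.49 in DMSO and -2.86 and -2.99 in RDF, with Zrsr1 called higher and Commd1 not called. Mcts2 lies within the signal peptide peptidase gene H13 on the same strand, over 793 shared bases. Mcts2 had 25.2 and 30.6 FPKM in DMSO and 24.7 and 23.4 FPKM in RDF, and H13 had 7.44 and 8.10 against 7.17 and 6.66 FPKM, with adjusted p of 0.191 and 0.251.

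**Figure D3:**
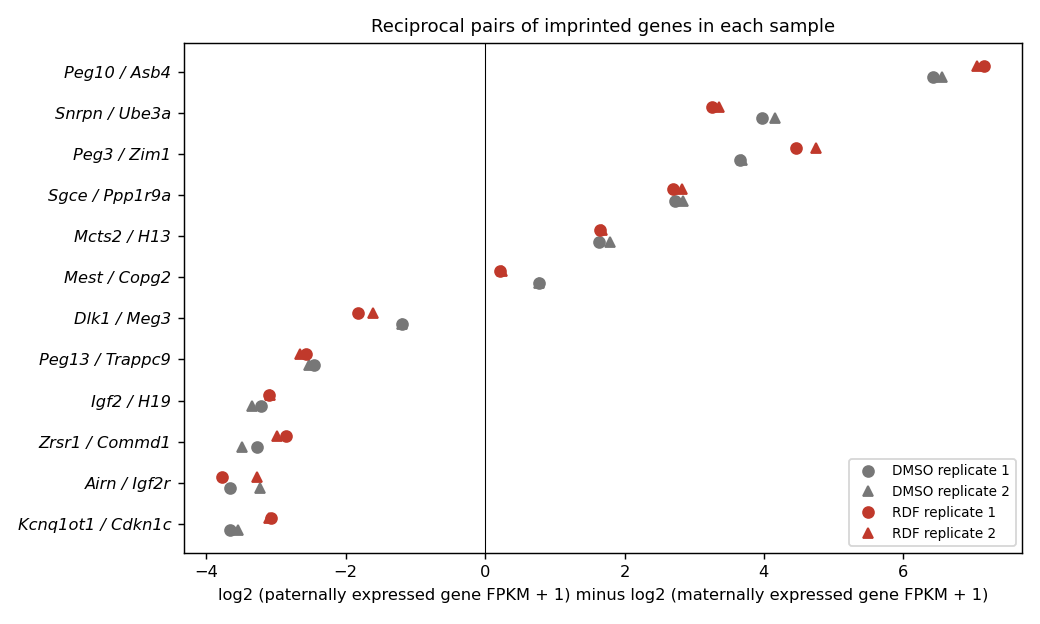
Log2 of (FPKM + 1) of the paternally expressed gene minus that of the maternally expressed gene in each of the 4 samples for 12 neighbouring pairs, with DMSO and RDF in separate colours and 1 point per sample. Igf2-H19 and Dlk1-Meg3 lie below 0 in all 4 samples, and Snrpn-Ube3a lies above 0.

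In several of the other pairs, genes close to 0 FPKM set the value. Sgce-Ppp1r9a was not among them, with differences of 2.72 and 2.84 in DMSO and 2.70 and 2.83 in RDF. The Peg3-Zim1 and Peg10-Asb4 differences, 3.65 and 3.68 and 6.42 and 6.56 in DMSO, rested on maternal partners at most at 0.106 and 0.254 FPKM, and the Kcnq1ot1-Cdkn1c difference of -3.66 and -3.55 rested on a paternal partner at 0.0844 and 0.0926 FPKM. In RDF they were 4.47 and 4.74, 7.16 and 7.06, and -3.07 and -3.10. The Peg13-Trappc9 difference was -2.45 and -2.52 in DMSO and -2.57 and -2.66 in RDF. Trappc9, a subunit of a trafficking complex, had 8.13 and 7.49 FPKM in DMSO and 9.41 and 10.8 FPKM in RDF. Its adjusted p was 0.0508, and 0.0487 with a pseudocount of 0.1.

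Genes that write, keep or erase imprints are not members and were listed separately. Of 20 such regulators, all of which were tested, 4 were higher, 4 lower and 12 not called, beside 13.3% higher and 8.28% lower over all genes tested. Dnmt3l, the cofactor of methylation in germ cells, fell from 540 and 483 FPKM to 280 and 274 FPKM, a change of -0.88 (adjusted p = 0.00159). Tet2, which oxidizes methylated cytosine, rose from 2.53 to 5.67 FPKM in the mean (adjusted p = 0.00409). Arid4b, a chromatin protein of imprint control at the Snrpn locus, rose by 0.74 (adjusted p = 0.00416), and Ctcfl, a germ cell relative of the insulator protein CTCF, fell by 0.74 on the log2 scale (adjusted p = 0.0191). The call of Ctcfl was lost without the filter (0.0642) or RDF replicate 2 (0.0795). Of the regulators outside the largest changes, a few are named here after their values were seen. The methyltransferases Dnmt3a and Dnmt3b also fell, by 0.54 and 0.25 on the log2 scale (adjusted p = 0.00498 and 0.0299). Dnmt3b lost its call with any single sample left out (0.0559 to 0.137), without the filter on low values (0.0506) and without the mean-variance trend (0.0649). Zfp57, which binds the letters searched above, rose from 24.3 and 23.4 FPKM to 30.3 and 30.6 FPKM, a change of 0.34 (adjusted p = 0.0121, and 0.0743 and 0.0832 without RDF replicate 1 or 2). The maintenance methyltransferase Dnmt1 had a change of -0.01 (adjusted p = 0.917), Trim28, the corepressor that ZFP57 recruits, -0.07 (adjusted p = 0.507), and Uhrf1, which brings DNMT1 to newly copied DNA, 0.14 (adjusted p = 0.123). A further 25 imprinted genes outside the members were listed, of which 24 were in the tables and 16 tested. Of these, 2 were called higher and 1 lower, 18.8% of those tested, beside 21.6% of all genes tested. Zdbf2 rose from 1.22 to 2.46 FPKM in the mean (adjusted p = 0.0109, and 0.0657 and 0.0822 without RDF replicate 1 or 2) and Dcn from 1.57 to 7.04 FPKM (adjusted p = 0.00112), while Nap1l4 fell by 0.21 on the log2 scale (adjusted p = 0.0339). Nap1l4 lost its call with any single sample left out (0.0873 to 0.150), without the filter (0.0503) and without the trend (0.0808). Dcn is also on the list of fibroblast markers. The plot of list changes shows the regulators and the fibroblast markers.

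**Figure D4:**
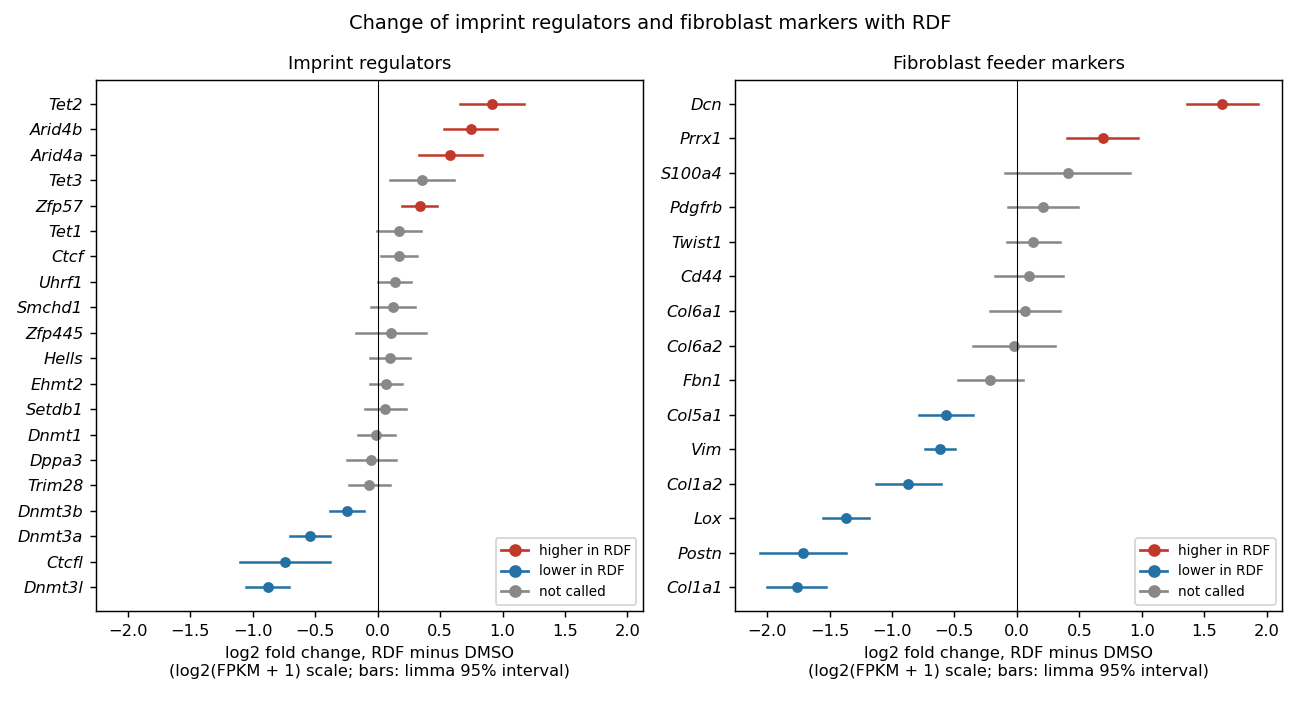
Log2 fold change, RDF against DMSO on the log2(FPKM + 1) scale, of the tested imprint regulators and fibroblast markers, with 1 point per gene. Dnmt3l lies at -0.88 among the imprint regulators and Dcn at 1.65 among the fibroblast markers.

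Of the 15 fibroblast markers tested, 2 were called higher and 6 lower, beside 13.3% higher and 8.28% lower over all genes tested. The falls included Col1a1, from 10.5 to 2.39 FPKM in the mean (adjusted p = 0.000577), Postn, with a change of -1.71 (adjusted p = 0.00164), and the collagen cross-linking enzyme gene Lox, with a change of -1.37 (adjusted p = 0.000577). The rises were Dcn, given above, and Prrx1, from 0.671 and 0.624 FPKM to 1.77 and 1.54 FPKM (adjusted p = 0.0124, and 0.0840 and 0.0693 without RDF replicate 1 or 2). Lum, which was not tested, had 0.110 and 0.0485 FPKM in DMSO and 0.513 and 0.827 FPKM in RDF. A further 7 tested markers were not called. Fibroblasts express H19, Igf2, Meg3 and Grb10 too, and the part of feeder RNA in their levels was not tested.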

How the data were processed

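RNA-seq was made by the authors from 4 samples of haESCs with a stranded mRNA kit. Per the labels' processing notes, TopHat2 2.0.14, Bowtie2 2.1.0 and Cufflinks 2.2.1 were named with build mm9, and the deposited tables hold FPKM, scaled by the authors to transcript length and library size. Groups and replicate numbers came from the sample titles, and the line from the study.

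Genes were matched by symbol. The members, the lists and the rule for naming genes were chosen with earlier results of these data known: all members are accounted for, called members and pairs are given per sample, and up to 4 of the largest calls of each list are named, with defining markers. FPKM were tested as log2(FPKM + 1) in genes that averaged at least 1 FPKM with limma 3.58.1 in R 4.3.3 (lmFit, eBayes with a trend, no block, Benjamini-Hochberg, threshold 0.05), a procedure tested on simulated data. SDs are of 2 samples. Depth was estimated from low values of genes with a single long transcript, and covers counting error only. Positions are those of the NCBIM37 annotation (mm9), in which 21828 symbols were found. Alternatives were another pseudocount, other filters, median-ratio and quantile scaling, no trend, a replicate block and each sample left out in turn. Multi-mapping and strand settings are not given in the sources used here.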

Additional observations from a re-analysis of the deposited data

How the results depend on the processing

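No called member changed direction under any alternative, and among the settings that keep all samples the calls lost were few. Of the 17 members called, 17 were also called with a pseudocount of 0.1, 16 with median-ratio scaling, 16 with quantile normalization, 15 without the mean-variance trend and 12 without the filter on low values, with 18012 genes tested. Requiring a mean of 5 FPKM kept all 15 that could be tested. Without the filter, 942 genes were higher and 606 lower over all genes, against 1561 and 972, the maternally expressed members called higher were 2, the regulators called lower 2 and the other imprinted genes called lower 0. The median log2 change was then 0.036 for paternally and 0.086 for maternally expressed members. With a mean of at least 5 FPKM the regulators called higher were 2, the other imprinted genes called higher 0, the fibroblast markers called higher 0 and called lower 3. Without the trend the other imprinted genes called lower were 0. The maternal median was 0.10 with median-ratio scaling and 0.10 with quantile normalization. The cause of these differences was not tested.

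With 1 sample left out the lone sample is assumed to vary like the others. The counts then ran from 253 to 1121 higher and 195 to 731 lower over all genes, from 3 to 9 higher and 2 to 8 lower over the members, from 3 to 5 and 0 to 4 for paternally expressed and from 0 to 4 and 2 to 4 for maternally expressed members. They ran from 2 to 4 higher and 2 to 3 lower for the regulators, from 1 to 2 higher and 0 lower for the other imprinted genes, and from 1 to 2 higher and 5 to 6 lower for the fibroblast markers. The paternal median ran from -0.016 (without RDF replicate 2) to 0.21 and the maternal median from 0.14 to 0.17. Among members that were not called, Dio3 ranged from -0.016 without RDF replicate 2 to 0.33 without RDF replicate 1, Ndn turned to -0.017 with median-ratio scaling, -0.039 with quantile normalization, -0.047 without DMSO replicate 2 and -0.049 without RDF replicate 2 (up to 0.078 without RDF replicate 1), and Tssc4 ranged from -0.22 without DMSO replicate 2 to 0.15 without RDF replicate 2 and 0.21 without DMSO replicate 1.

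With a pseudocount of 0.1 the mean DMSO difference of a pair became -3.47 for Igf2-H19, -1.33 for Dlk1-Meg3, 6.75 for Peg3-Zim1, 8.88 for Peg10-Asb4, 3.29 for Sgce-Ppp1r9a, 0.79 for Mest-Copg2, -6.04 for Kcnq1ot1-Cdkn1c, -4.84 for Airn-Igf2r, -3.65 for Zrsr1-Commd1 and -3.57 for Peg13-Trappc9.

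The samples carry replicate numbers, but with 2 of each condition the numbers are not taken to pair them: across genes, the residuals of samples with a shared number correlated with r = 0.134 (Pearson) and rho = 0.114 (Spearman). With the replicate number as a block, 1651 genes were higher and 1066 lower, and of the members 9 were higher and 8 lower, 6 and 3 of the paternal and 3 and 5 of the maternal class. Ppp1r9a then had an adjusted p of 0.0615 and Slc22a18 of 0.0476 from limma. The estimated depth limits the 12 members under the filter, several of which rest on fewer than 10 fragments a sample.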

Other observations

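Several imprinted genes act in the placenta and yolk sac, so markers of these lineages were set beside the members. Of 10 trophoblast markers 6 were tested, and 2 were called higher with RDF by limma, beside 13.3% of all genes tested. Tfap2c, a transcription factor of early trophoblast and germ cells, rose from 27.2 and 25.1 FPKM to 48.3 and 50.7 FPKM (log2 change 0.90, adjusted p = 0.00119), and Hand1, a factor of giant cells, from 3.88 and 3.43 FPKM to 6.12 and 6.98 FPKM (0.70, adjusted p = 0.00821, and 0.0708 without RDF replicate 2). Of 10 primitive endoderm markers 4 were tested and 1 was called, near the 21.6% of all genes: Gata6, at 2.83 and 1.45 FPKM in DMSO and 4.36 and 4.19 FPKM in RDF (adjusted p = 0.0428). Its call was lost with a pseudocount of 0.1 (0.0502), without the filter (0.114), with median-ratio scaling (0.0505), with quantile normalization (0.0621), without the trend (0.0613), and without DMSO replicate 2 (0.0532), RDF replicate 1 (0.178) or RDF replicate 2 (0.171). The summed level of the trophoblast markers was 128 and 121 FPKM in DMSO and 159 and 156 FPKM in RDF. Most of it in DMSO was Krt8, at 37.5 and 35.1 FPKM, and Krt18, at 47.1 and 45.8 FPKM. In RDF Krt8 had 36.3 and 32.9 FPKM and Krt18 52.1 and 50.8 FPKM, and most of the rise in the sum was Tfap2c. Cdx2, Elf5, Gcm1 and Prl3d1 were under 1 FPKM in all samples. The primitive endoderm markers summed to 23.3 and 21.8 FPKM in DMSO and 27.3 and 30.0 FPKM in RDF. The part of these lineages in the levels of Igf2, Peg10 or Ascl2 was not tested. Of the 10 embryonic stem cell markers 5 were called higher and 3 lower, beside 13.3% higher and 8.28% lower over all genes tested. The largest log2 changes among these 10 markers were in Dppa5a (-0.86), Zfp42 (0.85), Utf1 (-0.80) and Klf4 (0.55).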
